A study of Mus musculus with 24 samples.

Results

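Long-term morphine drinking was compared with saccharin drinking in mice whose last injection was saline. The comparison uses 12 of the 24 arrays of the series, the 6 whose titles start with mor and a number and the 6 whose titles start with sach and a number, chosen by title alone. All 24 arrays hold striatal RNA from C57BL/6J mice, a common inbred strain, at an age of 6 to 10 weeks, and the 2 drinks were each combined with an injection of morphine or of saline. The morphine drinkers took the drug by mouth over a long period, and the saccharin drinkers took a sweet solution without it. Mice of both groups described here received saline at 10 ml/kg and were killed 4 h later, so that neither group had morphine by injection. The other 12 arrays come from drinkers of the same kinds injected with morphine at 20 mg/kg. Neither the concentration of the drink nor its duration is given in the sources used here, nor whether the drink was available up to death. Each array carries 1 number in its title, but the labels do not say outright that a number is 1 animal, so p-values measure the spread between these arrays, part of which may be technical.

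The striatum receives dopamine from the midbrain and glutamate from cortex and thalamus, and most of its neurons are GABA-releasing medium spiny neurons that make enkephalin, dynorphin or substance P. Morphine acts on the mu opioid receptor, which inhibits adenylyl cyclase and opens potassium channels. Repeated opioid exposure is known for adaptations in cAMP signalling, in opioid peptide genes and in activity-dependent transcription, some of which appear when the drug is withdrawn.

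Each chip held 1 array of each of the 4 groups, and chip was a term in every fit unless stated. Median raw intensity lay between 164 and 430 on the 6 morphine arrays and between 169 and 404 on the 6 saccharin arrays. After normalization, pairs of the 12 arrays correlated at 0.942 to 0.993 over the 13748 genes tested. Values are normalized log2 intensities. Differences are log2 differences, morphine drinkers minus saccharin drinkers, with their standard error (SE), fitted with limma, and adjusted p-values are Benjamini-Hochberg values over all 13748 genes. With 6 arrays a group the number of arrays limits precision. The median SE was 0.142, and the 95% interval lay within 1 log2 unit of 0 on both sides for 13129 genes (95.5%) and within 0.5 for 8836 (64.3%).

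The striatal markers were present on 11 of the 12 arrays and low on 1. The mean over 27 genes of medium spiny neurons was 10.05 at the lowest, 12.47 at the median and 12.74 at the highest in morphine drinkers, and 11.99, 12.47 and 12.74 in saccharin drinkers. The lowest value belongs to mor_32, which had been singled out beforehand for its low Drd1 and Drd2. Both genes are among the 27, so the counts for this array are a description. On mor_32, 26 of the 27 genes were below all other 11 arrays, Ebf1, a transcription factor gene, being the exception. Rgs9, which encodes a regulator of G protein signalling concentrated in striatum, stood at 10.34 on mor_32 and at 14.61 to 14.96 on the other 5 morphine arrays, against 14.43 to 14.88 in saccharin drinkers. On the same array 6 of 15 genes of cortical excitatory neurons were above all other 11 arrays, Neurod2 among them, a transcription factor gene of those neurons, at 12.48. The array mor_in_31 of the same chip, from a morphine drinker injected with morphine, had a mean of 9.94 over the medium spiny neuron genes. Results are therefore given with all 24 arrays and, where it changes a value or a call, without mor_32. In bulk tissue fewer cells of a type and less RNA per cell cannot be told apart.

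**Figure D1:**
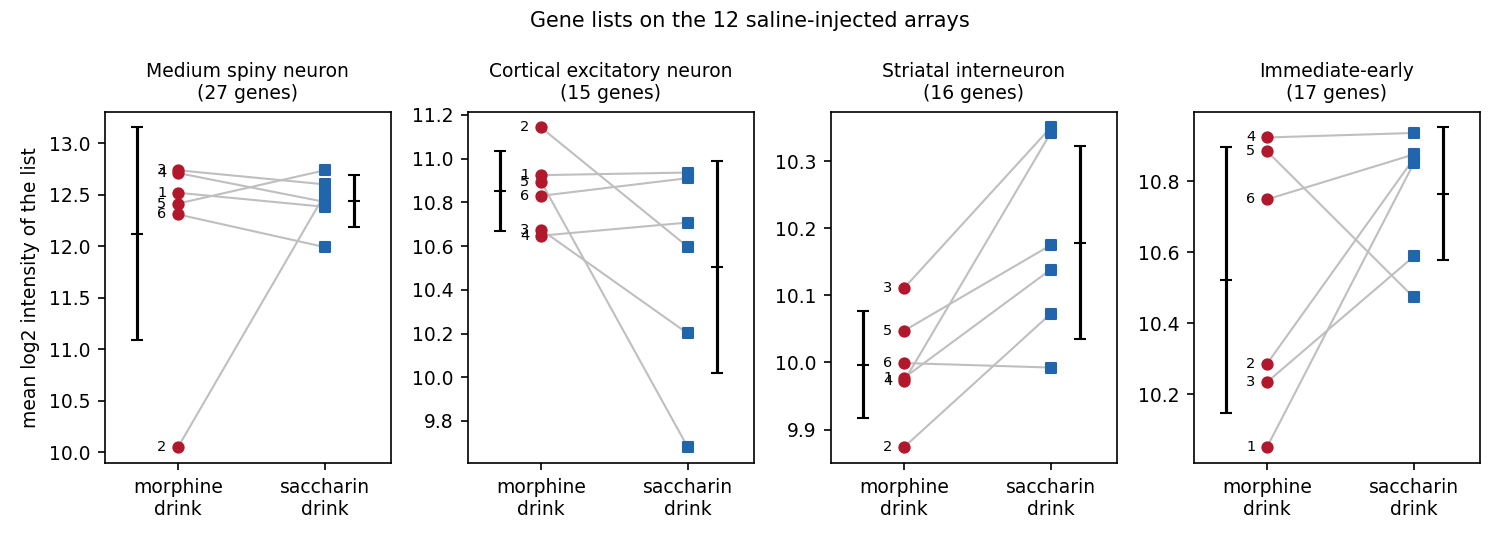
Mean log2 intensity of 4 gene lists on the 12 saline-injected arrays, morphine drinkers (red circles, numbered by chip) left of saccharin drinkers (blue squares). Grey lines join arrays of 1 chip, and black bars give the mean and SD of 6 arrays. The medium spiny neuron mean of mor_32, on chip 2, is 10.05, while the other 11 arrays lie between 11.99 and 12.74, and 3 morphine arrays have the lowest immediate-early means.

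The comparison asks what prolonged morphine drinking left in the striatum when no morphine was injected. No gene passed the threshold of adjusted p = 0.05 with 24 arrays (0% of 13748) or without mor_32 (0%). The smallest adjusted p was 0.495 by limma, for Nlgn1, and the next was 0.986. At an unadjusted p under 0.05 there were 633 genes (4.6%), 292 higher (2.12%) and 341 lower (2.48%) in morphine drinkers, where 687.4 would fall in a bin of that width if p-values were spread evenly. Without mor_32 there were 648 (4.71%), 256 higher (1.86%) and 392 lower (2.85%). Of all genes, 201 (1.46%) were higher on 6 of 6 chips and 242 (1.76%) lower on 6 of 6. The point estimate exceeded 1 log2 unit in size for 10 genes. In data simulated from these means and spreads with independent noise, 100 genes were changed by 0.5 and 100 by 1 at once. The same fit recovered 46 and 78 of them. The adjustment is stricter when fewer genes change, so these shares do not hold for a comparison with few changed genes.

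**Figure D2:**
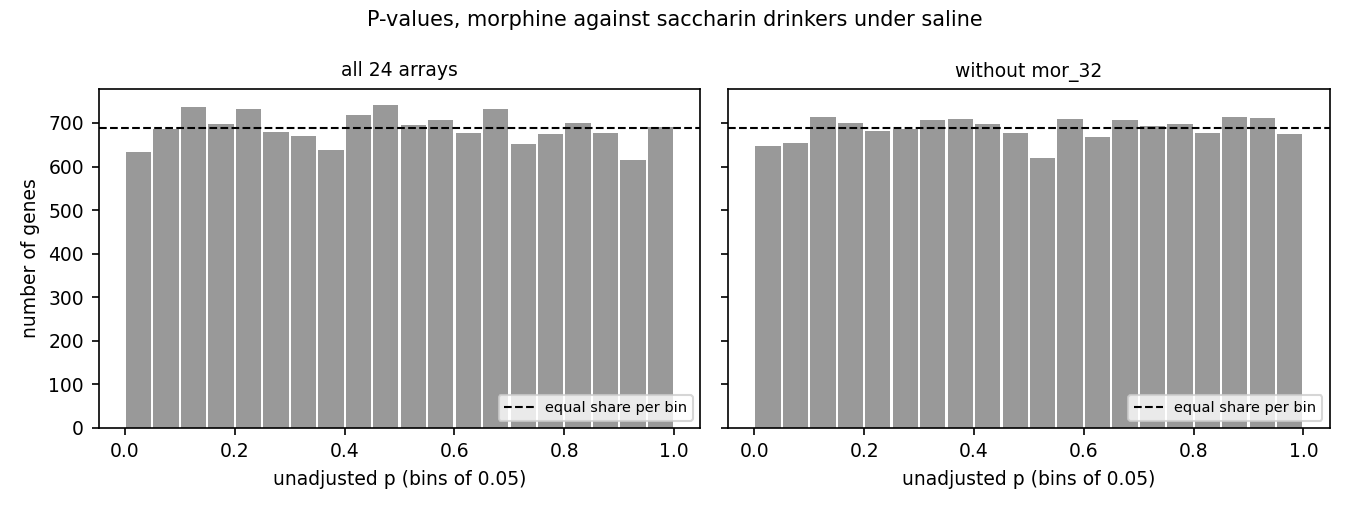
Number of genes in each of 20 bins of unadjusted p for morphine against saccharin drinkers under saline, with all 24 arrays (left) and without mor_32 (right); the dashed line is the equal share of 687.4 genes per bin. Bins hold 616 to 741 genes on the left and 620 to 713 on the right, and the lowest bin, with 633 and 648 genes, is below the line in both.

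The 10 smallest p-values among genes higher in morphine drinkers on at least 5 chips began with Nlgn1. It encodes neuroligin 1, a postsynaptic adhesion protein of excitatory synapses that binds neurexins. Nlgn1 had a lowest value of 7.84, a median of 8.92 and a highest of 9.25 in morphine drinkers, against 7.48, 7.94 and 8.41 in saccharin drinkers. Of the morphine arrays 5 lay above every saccharin array, and mor_41 lay within their range. The difference was 0.88 (SE 0.161, 1.84-fold, higher on 6 of 6 chips, adjusted p = 0.495 by limma), and 0.94 without mor_32 (adjusted p = 0.563 by limma). The list of 33 synaptic adhesion genes, which holds Nlgn1, had a median of 0.11 (0.08 without mor_32), beside 0.00 over all genes. With all arrays 22 members were above 0 and 11 below, and without mor_32 18 and 15. Of all genes 50.9% were above 0 with all arrays and 48.1% without mor_32. The list's only other member with an unadjusted p under 0.05 with all arrays was Lrrtm1, at 0.52 (SE 0.205). Lrrtm1 encodes an excitatory synapse organiser and a neurexin ligand too. Without mor_32 Lrrtm1 missed it (0.44, unadjusted p = 0.0613 by limma). There Lrrc4 was under it in the other direction (-0.51, and -0.42 with all arrays). The list's mean, which includes Nlgn1, was higher in morphine drinkers on 6 of 6 chips, by 0.0096 to 0.31. In morphine-injected mice the list's median was 0.00.

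Bend3, which encodes a transcriptional repressor bound to heterochromatin, was at 7.53, 7.75 and 8.17 (lowest, median, highest) in morphine drinkers and at 7.06, 7.24 and 7.496 in saccharin drinkers. These groups did not overlap. The difference was 0.54 (SE 0.116, adjusted p = 0.986 by limma). Stra6, the cell-surface receptor through which cells take up retinol, was at 7.98, 8.42 and 8.72 in morphine drinkers and at 7.11, 7.63 and 8.41 in saccharin drinkers. Only the highest saccharin array, sach_5, reached into the morphine range, and the difference was 0.74 (SE 0.168, higher on 6 of 6 chips). The 13 tested retinoid genes had a median of 0.04, and no other member had an unadjusted p under 0.05.

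The remaining genes of this set were Isg20, an interferon-induced exonuclease (0.84), Meox1, a homeobox transcription factor gene (1.02), Casp4, an inflammatory caspase that binds bacterial lipopolysaccharide (0.63), the transporter gene Abca9 (0.49), Psors1c2 (0.90), the kelch-domain gene Klhdc9 (0.53) and Lmf2, a lipase maturation factor gene (0.83). All 7 had an adjusted p of 0.986 by limma. Several genes of the whole set were dim, close to the filter of 7.05 on mean log2 intensity. That mean, over all arrays of the series, was 7.15 for Isg20, 7.22 for Psors1c2, 7.33 for Casp4 and 7.35 for Lmf2. It was 7.42 for Bend3 and 7.54 for Meox1. The other members were brighter, Stra6 at 8.12, Abca9 at 8.14, Nlgn1 at 8.41 and Klhdc9 at 9.31. Meox1 stood at 7.80 to 9.28 in morphine drinkers, against 6.19 to 7.78 in saccharin drinkers, with no overlap, and its lowest value, on sach_10, lay far below the other 5. Psors1c2 was at 6.20 on mor_41, below every saccharin array, and at 7.13 to 8.39 on the other morphine arrays, against 6.42 to 7.04 in saccharin drinkers. Klhdc9 was at 9.23 to 10.03 in morphine drinkers and at 8.93 to 9.19 in saccharin drinkers, again with no overlap.

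Among genes lower in morphine drinkers, Anapc10, a subunit of the anaphase-promoting ubiquitin ligase, had the smallest p. It was at 7.11, 7.54 and 7.78 in morphine drinkers and at 7.69, 7.98 and 8.35 in saccharin drinkers. The ranges overlapped only through mor_30 and the 2 lowest saccharin arrays, and the difference was -0.47 (SE 0.104, lower on 6 of 6 chips, adjusted p = 0.986 by limma). Slc6a11 encodes GAT3, the GABA transporter of astrocytes. It was at 9.87, 10.11 and 10.49 in morphine drinkers, against 10.16, 10.55 and 11.24 in saccharin drinkers. The difference of -0.48 (SE 0.111) came mainly from sach_2, sach_3 and sach_5, at 11.11, 10.86 and 11.24, while the other 3 saccharin arrays, at 10.16 to 10.23, lay within the morphine range.

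Nrg1, which encodes neuregulin 1, a ligand of ErbB receptors, stood at 7.29, 7.55 and 8.01 in morphine drinkers and at 7.82, 8.11 and 8.30 in saccharin drinkers. It differed by -0.45 (SE 0.106) and was lower on 6 of 6 chips. Per2, a repressor in the circadian clock, was at 11.04, 11.65 and 11.78 in morphine drinkers, against 11.89, 12.07 and 12.30 in saccharin drinkers. The groups did not overlap, and the difference was -0.51 (SE 0.131, lower on 6 of 6 chips, adjusted p = 0.986 by limma). A second bright Per2 probe differed by -0.44 and was lower on 6 of 6 chips, and a dim one by -0.02. The 17 clock genes had a median of -0.04, and Per2 alone among them had an unadjusted p under 0.05. Per1, its relative, stood at 11.13 to 12.20 in morphine drinkers and at 11.69 to 12.31 in saccharin drinkers.

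Clk1, a kinase of splicing factors, differed by -0.39, the transcriptional regulator gene Tsc22d1 by -0.42, Ccdc85b by -0.28, Psmd5, an assembly chaperone of the proteasome, by -0.48, and Endov, an endonuclease that cuts RNA at inosine, by -0.92. Egr1 completes this set and is described with the immediate-early genes. The fit without mor_32 brought in Osbp2, an oxysterol-binding protein gene (0.45, and 0.35 with all arrays), and Hexim1, an inhibitor of the elongation kinase P-TEFb (-0.35, and -0.31 with all arrays). In 7 of the 20 genes, 9 further probes were above the filter. Of these 6 had the same sign as the probe used and 3 the opposite one. The same signs were -0.44 and -0.02 for Per2, -0.36 for Nrg1, -0.30 for Tsc22d1, -0.21 for Anapc10 and 0.02 for Casp4. Only 1 of the 6, the bright Per2 probe, had an unadjusted p under 0.05 by limma. The opposite signs were 2 Abca9 probes at -0.28 and -0.25, against 0.49 for the probe used, and a dim Ccdc85b probe at 0.67 (unadjusted p = 0.0142 by limma). Probes below the filter had the same sign for Bend3 (0.06), Stra6 (0.0092), Abca9 (0.38), Casp4 (0.17), Psmd5 (-0.75) and Endov (-0.72 and -0.05). They had the opposite sign for Nrg1 (0.50), Anapc10 (0.11) and Clk1 (0.10). The Bend3 and Stra6 probes were thus close to 0.

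**Figure D3:**
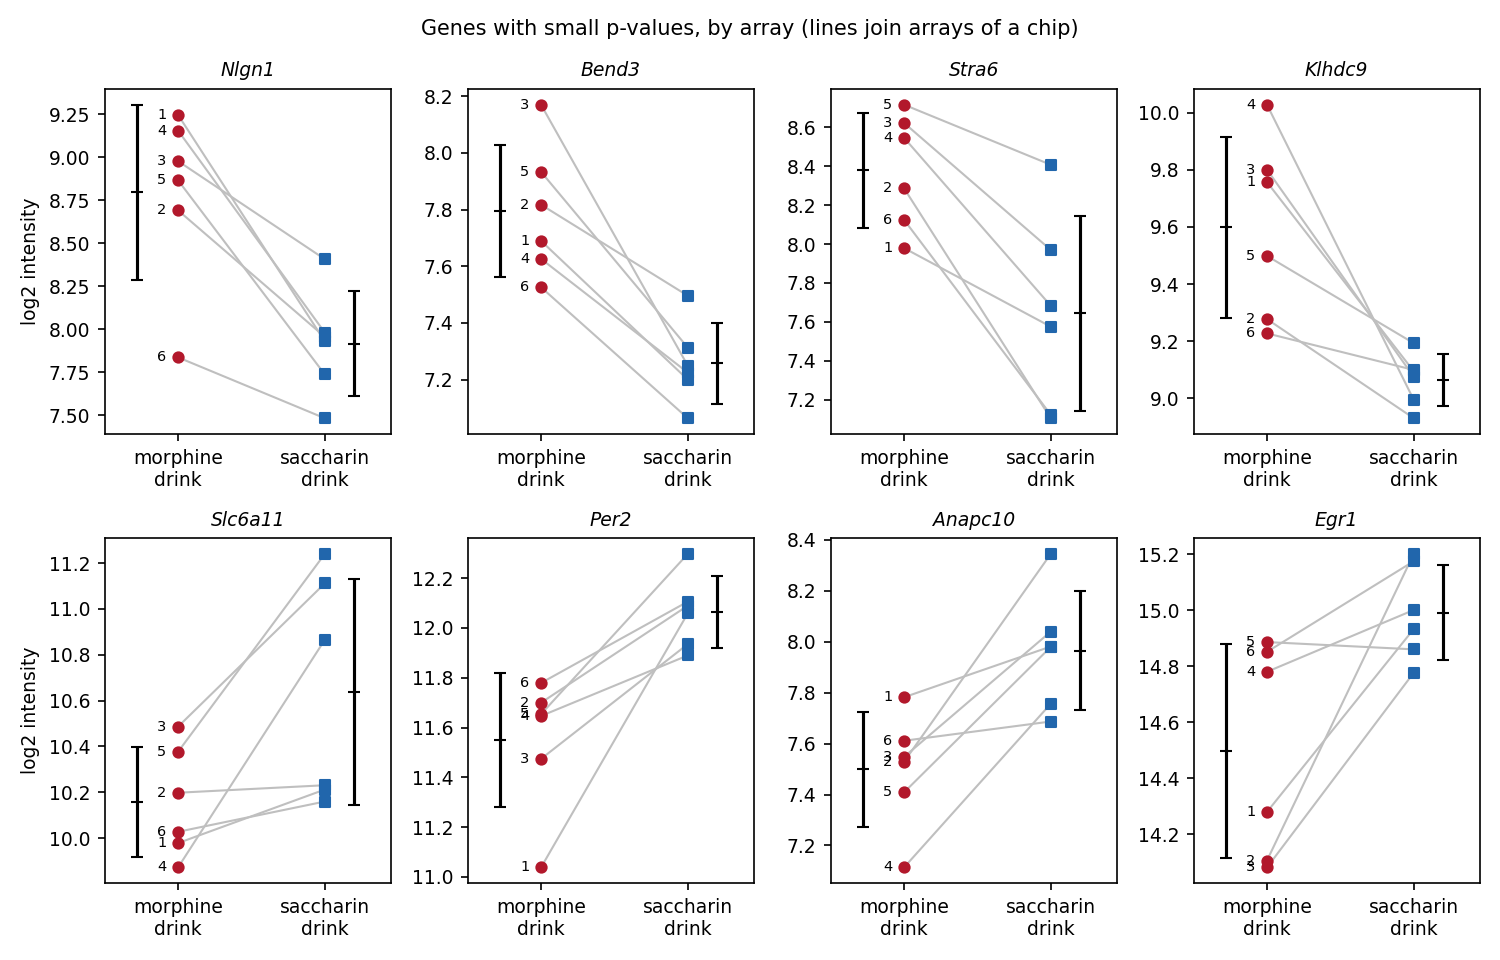
Log2 intensity of 8 genes with small p-values on the 12 saline-injected arrays, morphine drinkers (red circles, numbered by chip) left of saccharin drinkers (blue squares). Grey lines join the arrays of a chip, and black bars give mean and SD (n = 6). Bend3, Klhdc9 and Per2 do not overlap between groups, while 5 of 6 morphine arrays exceed every saccharin array for Nlgn1.

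In all, 9 genes had every morphine array above every saccharin array (0.0655% of genes tested) and 10 the reverse (0.0727%). The 9 were Bend3, H2bc3, Ifitm2, Itpka, Klhdc9, Meox1, Myo7b, Pmf1 and Zfp362. The 10 were Ankrd61, Crkl, Fbxo3, Hexim1, Med4, Per2, Phospho2, Ppp2r1b, Tcte3 and Umodl1. Those outside the sets above were listed after their values were seen.

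The same drinks were compared on the other 12 arrays, from mice injected with morphine. These arrays share none with the saline comparison, but both use 1 estimate of spread per gene. There too no gene passed (0%, with 758 or 5.51% at an unadjusted p under 0.05 by limma). Of the 20 genes above, 10 had the same sign in the injected mice (50%), where 51.8% of all genes did. Bend3 was the only 1 of the 20 with the same sign and an unadjusted p under 0.05 (0.26). Klhdc9 (-0.31) and Ccdc85b (0.16) had the opposite sign with such a p. Nlgn1 differed by 0.31 and Per2 by -0.10 in injected mice, against 0.88 and -0.51 under saline. A test of the difference between the comparisons gave an unadjusted p under 0.05 for 18 of the 20, which were chosen on 1 side of it, and no gene passed over all 13748 (0%, smallest adjusted p = 0.935 by limma, 723 at an unadjusted p under 0.05).

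**Figure D4:**
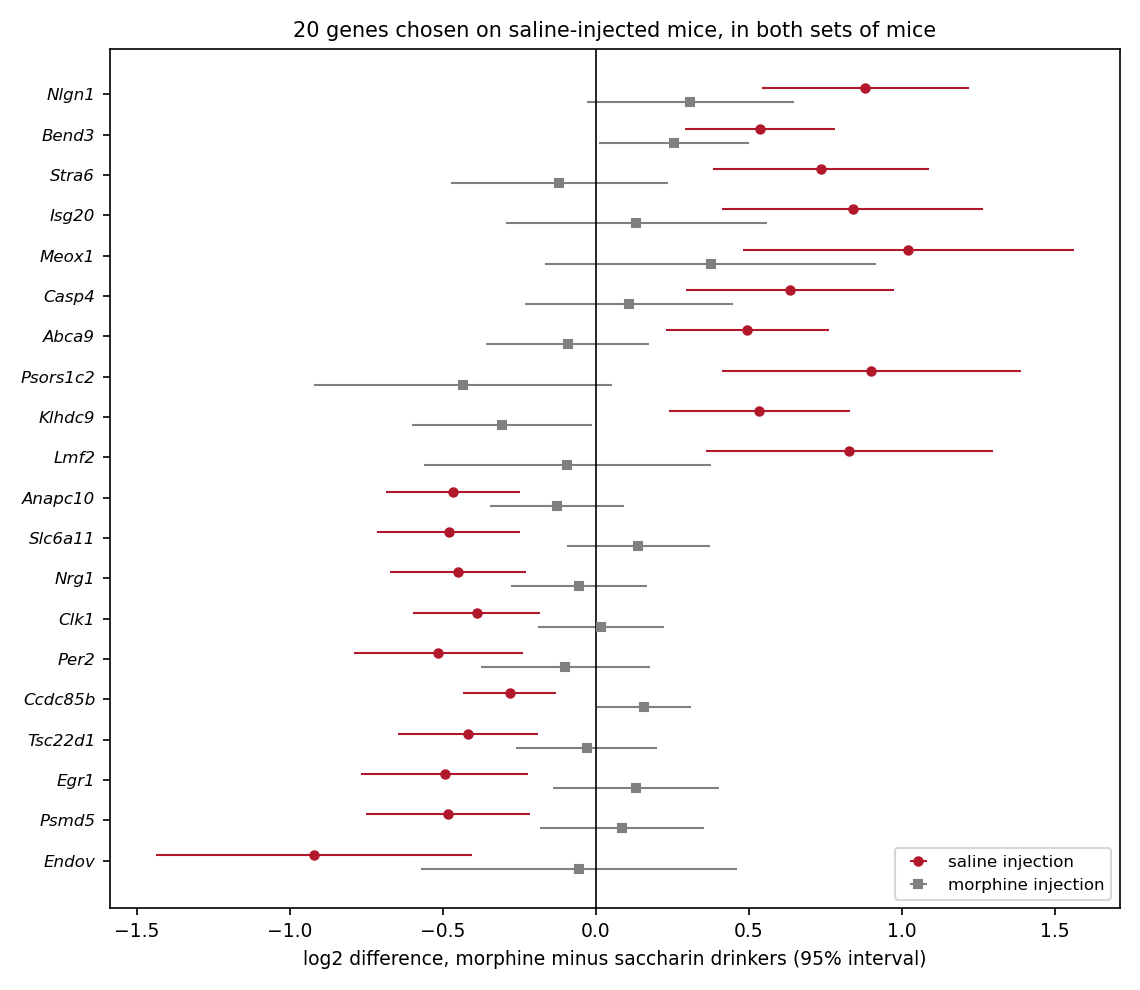
Log2 difference, morphine minus saccharin drinkers, with its 95% interval for the 20 genes chosen on the saline-injected mice, in mice injected with saline (red circles) and with morphine (grey squares). Saline differences run from -0.92 to 1.02 by choice, and those in morphine-injected mice from -0.43 to 0.38, with 10 of 20 on the same side of 0.

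Immediate-early genes are transcribed within minutes of neuronal activation, through transcription factors such as CREB and SRF already present in the nucleus. CREB binds the cAMP response element, and SRF binds the CArG box. The 3 regions below are shown because these genes had some of the larger negative differences of the list, and they let the known elements be seen. Each is the 250 bases before the gene start in the RefSeq table of assembly GRCm38.p6, 5′ to 3′ on the gene's strand, with the core TGACG of the cAMP response element (CGTCA on the other strand) and the CArG box in capitals. They are Fos at chr12:85473640-85473889 on the plus strand, Egr2 at chr10:67537619-67537868 on the plus strand and Egr4 at chr6:85513590-85513839 on the minus strand. The Egr2 window printed is 1 of 5 listed and was picked by its number of matches. Another of the 5 had none of these elements.
Fos: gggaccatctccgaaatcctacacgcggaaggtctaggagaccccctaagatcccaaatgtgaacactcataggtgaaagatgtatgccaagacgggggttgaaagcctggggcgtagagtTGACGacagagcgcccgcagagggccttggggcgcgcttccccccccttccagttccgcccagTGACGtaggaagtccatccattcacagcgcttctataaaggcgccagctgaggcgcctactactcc
Egr2: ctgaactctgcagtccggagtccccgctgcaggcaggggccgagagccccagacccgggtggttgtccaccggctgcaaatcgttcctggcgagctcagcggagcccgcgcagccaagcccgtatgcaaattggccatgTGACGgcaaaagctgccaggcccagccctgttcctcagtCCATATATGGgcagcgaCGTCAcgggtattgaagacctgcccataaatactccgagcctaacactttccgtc
Egr4: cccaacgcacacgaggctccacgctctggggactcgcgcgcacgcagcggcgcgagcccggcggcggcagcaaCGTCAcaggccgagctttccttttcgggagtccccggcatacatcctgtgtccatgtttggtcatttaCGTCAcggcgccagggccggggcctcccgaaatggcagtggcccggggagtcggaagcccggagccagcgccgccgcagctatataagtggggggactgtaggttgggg
The table lists windows of 250 bases before to 50 after the start for 14 of the 17 immediate-early genes tested, several of them overlapping where a gene has more than 1. Searched on both strands, TGACG was in 12 of their 19 windows (63.2%, in 10 genes), against 20.8% of all 32851 windows in the table. The CArG box was in 4 of the 19 windows (21.1%), all of Egr2, against 1.63%, and the complete element TGACGTCA, which overlaps the core, in 1 (5.26%), against 1.79%. These are matches of letters, and no binding was measured. Sequence outside the windows was not searched, nor were Arc, Egr1 and Egr3, which have no window in the table.

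Egr2, a zinc finger transcription factor gene, had the largest negative difference of the 17 immediate-early genes tested. It stood at 7.78 on mor_30, 7.88 on mor_32, 8.97 on mor_33, 10.59 on mor_37, 10.44 on mor_38 and 10.18 on mor_41, while the 6 saccharin arrays lay between 10.29 and 10.52. Thus 3 morphine arrays were far below every saccharin array and the other 3 were close to them. The difference was -1.09 (SE 0.336, adjusted p = 0.986 by limma), and -0.93 without mor_32. Within chips it was -2.50, -2.55 and -1.34 on chips 1 to 3, and 0.15, 0.04 and -0.34 on chips 4 to 6.

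The same arrays were low for other members. Egr1, which marks recent synaptic activity, was at 14.28, 14.11 and 14.08 on mor_30, mor_32 and mor_33 and at 14.78 to 14.89 on the other 3, against 14.78 to 15.20 in saccharin drinkers. Its difference was -0.49 (SE 0.129, adjusted p = 0.986 by limma). Arc, whose protein acts at active synapses, was at 10.91, 11.23 and 11.25 on those 3 arrays and at 12.55 to 12.68 on the other 3, against 11.80 to 12.71 in saccharin drinkers. Its difference of -0.45 (SE 0.271) had an unadjusted p of 0.115 by limma. Fos, a subunit of the AP-1 factor, was at 8.73, 9.97 and 10.27 on the same arrays and at 10.89 to 11.56 on the others, against 10.41 to 11.40 in saccharin drinkers (-0.69, SE 0.311). Egr4 was at 10.70, 10.62 and 11.004 on mor_30, mor_32 and mor_33 and at 11.58 to 11.94 on the others, against 11.59 to 12.13 in saccharin drinkers (-0.50, SE 0.185).

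Of the 17 members 13 were below 0 and 4 above, with none passing. Egr1, Egr2, Egr4 and Fos had an unadjusted p under 0.05, beside 2.48% of all genes in that direction, and without mor_32 Egr4 and Fos missed it (0.0543 and 0.0802 by limma), while Fosl2, an AP-1 subunit gene, was under it (-0.49, and -0.39 with all arrays), which makes 3 members there. The median was -0.28 with all arrays and -0.21 without mor_32, and in the morphine-injected mice it was 0.05. Members above 0 included Nr4a2, a nuclear receptor gene (0.52), and Jun (0.33), and Egr3 was at -0.07. The 19 later activity-regulated genes had a median of -0.13, and of -0.07 without mor_32.

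Of the 8 listed opioid peptide and receptor genes 5 were tested, with a median of -0.12, and of 0.05 without mor_32. The 5 were Penk, Pdyn, Pnoc, Oprk1 and Oprl1, and the mu receptor gene Oprm1 was not among them. Penk, the enkephalin precursor gene, was at 8.98 on mor_32 and at 11.42 to 12.08 on the other morphine arrays, against 10.66 on sach_8 and 11.67 to 11.98 on the other saccharin arrays. Its difference was -0.28 (SE 0.461) with all arrays, although Penk was higher in morphine drinkers on 5 of 6 chips, and 0.07 without mor_32. Without mor_32 and mor_in_31 it was 0.28, with a 95% interval from -0.02 to 0.58 (unadjusted p = 0.0643 by limma). Pdyn, the dynorphin precursor gene, was at 11.67 on mor_32 and at 13.31 to 14.30 on the other morphine arrays. In saccharin drinkers it was at 12.96 to 14.19. Pdyn differed by -0.33 with all arrays, by -0.09 without mor_32 and by 0.07 without mor_32 and mor_in_31. Oprk1, the kappa receptor gene, was at 6.53 on mor_32 and at 7.99 to 8.86 on the other 5, against 7.66 to 8.64 in saccharin drinkers, and differed by 0.08 (0.37 without mor_32, unadjusted p = 0.19). The nociceptin receptor gene Oprl1 differed by -0.07. The nociceptin gene Pnoc differed by -0.12 with all arrays, by 0.05 without mor_32 and by 0.07 without mor_32 and mor_in_31. None had an unadjusted p under 0.05.

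Genes of signalling downstream of the opioid receptors had medians near 0. The 22 G protein, arrestin and potassium channel partners had a median of -0.04, and none had an unadjusted p under 0.05. The 32 cAMP pathway genes had a median of -0.05. Among them Crtc2, a coactivator of CREB, had an unadjusted p under 0.05, at 6.99 to 8.38 in morphine drinkers and 7.83 to 8.50 in saccharin drinkers (-0.36, SE 0.166). The 11 dopamine genes had a median of -0.06. Drd4, the D4 receptor gene, was at 7.43, 7.58 and 8.02 in morphine drinkers, against 6.98, 7.19 and 7.51 in saccharin drinkers, higher on 6 of 6 chips by 0.44 (SE 0.226, unadjusted p = 0.0681 by limma). It differed by -0.56 in morphine-injected mice. Drd1 differed by -0.52 and Drd2 by -0.50 with all arrays, and by -0.10 and -0.06 without mor_32, a fit that keeps mor_in_31. Without mor_32 and mor_in_31 they differed by 0.13 and 0.21.

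The medium spiny neuron list as a whole had a median of -0.32 with 26 of 27 members below 0. Without mor_32 the median was -0.00 with 14 below, and without mor_32 and mor_in_31 it was 0.15 with 24 of 27 above 0. No member had an unadjusted p under 0.05 in any of these fits. The 16 striatal interneuron genes had a median of -0.26 with all arrays and -0.28 without mor_32, with 6 members above 0 and 10 below in both fits. The 6 were Cck (0.87), Vip (0.45), Kit (0.22), Npy (0.16), Pvalb (0.12) and Sst (0.11), values with all arrays. None of these 6 had an unadjusted p under 0.05. Lhx8, a transcription factor gene of cholinergic neurons, was at 7.17, 7.74 and 8.33 in morphine drinkers, against 7.81, 8.26 and 9.35 in saccharin drinkers (-0.73, SE 0.238). Its 2 highest values were on sach_5 and sach_2. Lhx6 (-0.37) and Gbx2 (-0.81) also had an unadjusted p under 0.05 with all arrays and missed it without mor_32. There Calb2, the calretinin gene (-1.10, and -0.73 with all arrays), and Trh, the thyrotropin-releasing hormone gene (-0.52, and -0.30 with all arrays), were under it instead. Both fits thus had 3 such members of 16, beside 2.48% of all genes lower with all arrays and 2.85% without mor_32.

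Cortical and thalamic or septal markers also varied among the saccharin arrays. The mean over 15 cortical excitatory neuron genes was 10.65, 10.86 and 11.14 (lowest, median, highest) in morphine drinkers, against 9.68, 10.65 and 10.94 in saccharin drinkers, with the lowest values on sach_5 (9.68) and sach_2 (10.20). The mean over 15 thalamic, septal and hypothalamic genes was highest on the same arrays, at 9.30 on sach_5 and 9.28 on sach_2, against 8.40 to 8.78 in morphine drinkers and 8.36 to 8.82 on the other saccharin arrays. Slc17a7, the vesicular glutamate transporter of cortical neurons, ranged from 8.51 to 13.38 in saccharin drinkers and from 12.52 to 13.22 on the morphine arrays other than mor_32. The cortical list had a median of 0.31, 12 of 15 members above 0, and the thalamic list of -0.18, 11 of 15 below 0. Of the cortical list Itpka (0.31), Emx1 (0.53) and Sv2b (0.37) had an unadjusted p under 0.05, beside 2.12% of all genes in that direction. Without mor_32 Sv2b missed it (0.33, unadjusted p = 0.0864 by limma). Without sach_5 the thalamic median was -0.088. No thalamic list member had an unadjusted p under 0.05 with all arrays, and without mor_32 Gal (-0.90), the galanin gene, and Oxt (-0.53), the oxytocin gene, did. With the cortical mean of each array as a covariate, chosen after seeing the data, the interneuron median was -0.13. No interneuron member had an unadjusted p under 0.05 in that fit. The median of the immediate-early genes there was -0.25. Slc6a11 stood at -0.41, Nlgn1 at 0.90, Per2 at -0.39, Fos at -0.90, Ngfr at -0.52 and Lhx8 at -0.40, the last with an unadjusted p of 0.0542 by limma.

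GABA genes had a median of -0.11 over 17 members (-0.12 without mor_32). Beside Slc6a11, Gabrg3, a GABA-A receptor subunit gene, was at 8.74, 9.31 and 9.68 in morphine drinkers and at 9.48, 9.50 and 9.71 in saccharin drinkers, lower on 6 of 6 chips by 0.32 (difference -0.32, SE 0.106). Gabrg1 was at -0.38. With the cortical mean as a covariate the list's median was 0.01. The 13 neurotrophic genes had a median of -0.13 (-0.10 without mor_32 and -0.066 without sach_5), and the list's mean was lower in morphine drinkers on 6 of 6 chips. Ngfr, the p75 neurotrophin receptor gene, differed by -0.63 (SE 0.204), with its 2 highest values, 9.61 and 9.34, on sach_2 and sach_5. Bdnf was at 8.97 to 11.07 in morphine drinkers and at 8.03 to 11.03 in saccharin drinkers, a difference of 0.25.

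Medians of the glial and immune lists ran from -0.07 to 0.17. Microglia genes had a median of 0.13 with 17 of 18 members above 0, and of 0.04 without mor_32 with 13 above. Interferon response genes had a median of 0.17 with 17 of 19 above 0, and of -0.10 without mor_32 with 15 below. Their mean was 10.70 on mor_32 and 8.96 to 9.61 on the other morphine arrays, against 8.97 to 9.62 in saccharin drinkers. The 19 cytokine and receptor genes had a median of 0.10, and of -0.01 without mor_32. Of these Il1b (0.45) and Tgfb1 (0.43) had an unadjusted p under 0.05 with all arrays and missed it without mor_32. Astrocyte genes had a median of -0.06 and myelin genes of -0.07. Gfap, the astrocyte intermediate filament gene, was at 13.70 on mor_32 and the median of 6 morphine arrays was 11.55, against 11.62 in saccharin drinkers. Blood cell genes had a median of 0.24, 7 of 8 above 0, and a mean higher in morphine drinkers on 6 of 6 chips. In morphine-injected mice that median was -0.19.

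Glucocorticoid-induced genes, which respond to stress hormones, had a median of -0.09 with or without mor_32, and 18 of 27 were below 0. Adipor2, an adiponectin receptor gene, was at 11.59, 11.85 and 12.10 in morphine drinkers, against 12.001, 12.13 and 12.28 in saccharin drinkers, and was the only member with an unadjusted p under 0.05 (-0.27, SE 0.081, lower on 6 of 6 chips). Sgk1, a kinase gene, stood at 13.04 to 13.74 in morphine drinkers and at 13.28 to 14.17 in saccharin drinkers (-0.35). Tsc22d3, the glucocorticoid-induced leucine zipper gene, differed by -0.18, Plin4, a lipid droplet protein gene, by -0.39, and Fkbp5, whose protein restrains that hormone's receptor, by 0.01.

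Of 31 lists with at least 4 tested genes none had a member that passed. With all arrays 17 medians lay within 0.1 of 0, and without mor_32 21 did. Leaving out mor_32 turned the sign of 4 medians, those of the opioid, interferon response, cytokine and endothelial lists.

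**Figure D5:**
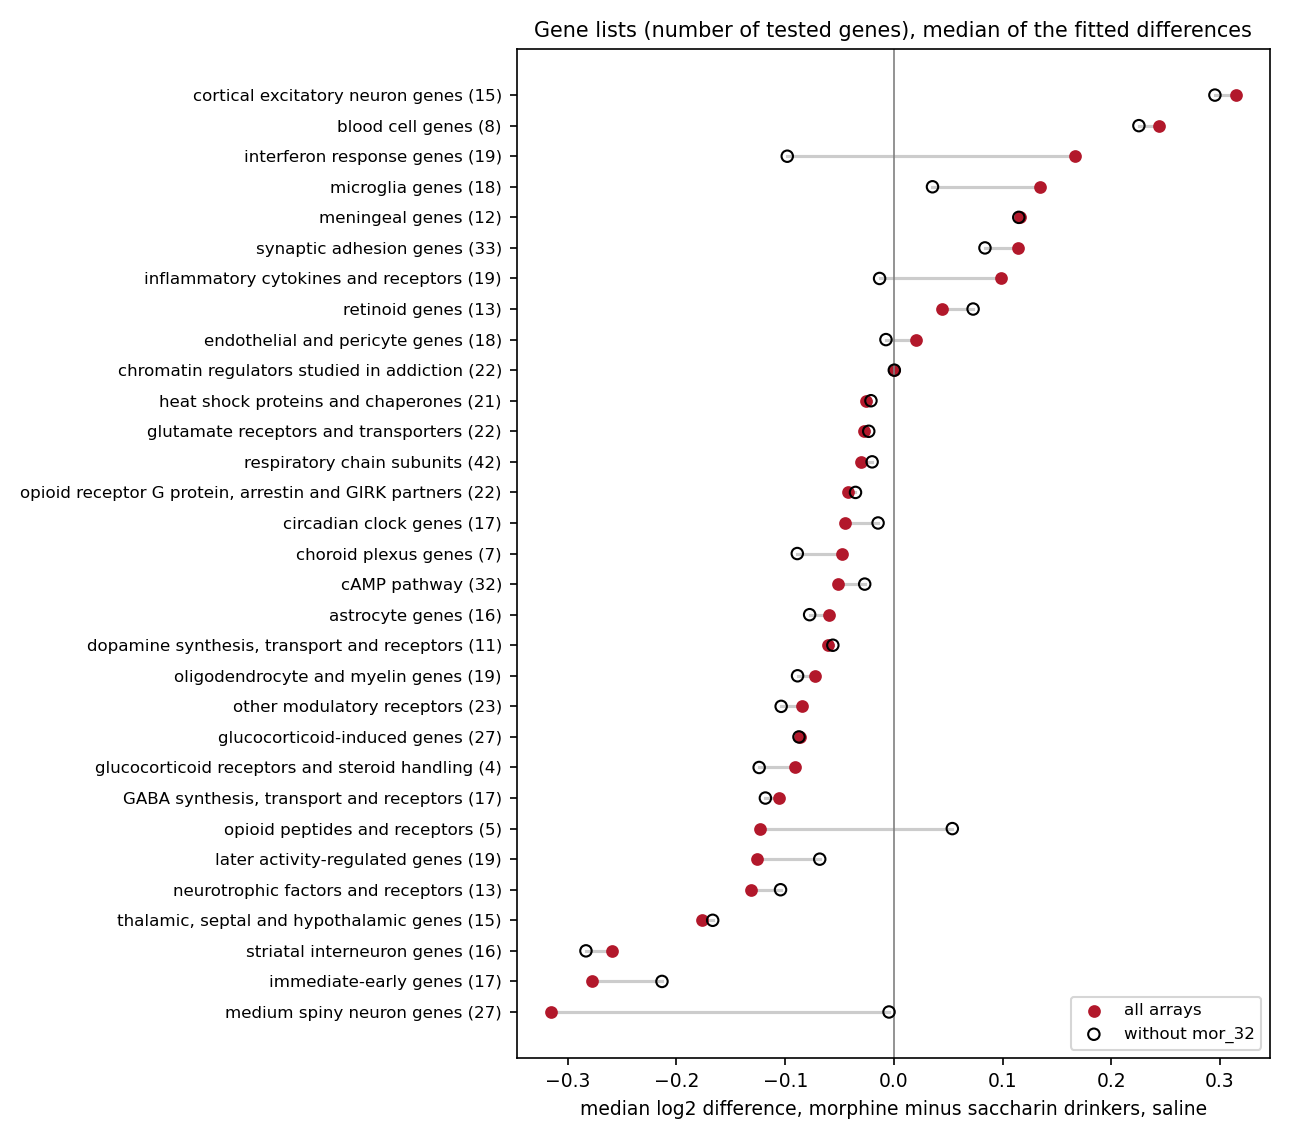
Median fitted log2 difference, morphine minus saccharin drinkers under saline, of 31 gene lists with the number of tested genes in brackets, with all arrays (red) and without mor_32 (open circles). The medium spiny neuron list has the lowest median with all arrays (-0.32) and -0.00 without mor_32, interferon response genes have 0.17 and -0.10, while immediate-early (-0.28 and -0.21) and interneuron genes (-0.26 and -0.28) stay below 0.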

How the data were processed

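The authors deposited raw probe intensity values of the 24 arrays, not normalized between arrays, and processed log2 values of unstated origin. The deposited log2 values differed by at most 0.0351 from intensities that were only quantile-normalized and logged, and were an alternative. Per the labels' protocols, Trizol-extracted, DNase-treated total RNA was turned into biotinylated cRNA. Whether background had been subtracted from the deposited intensities is not given. Detection p-values were not used here.

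Background was modelled by normexp (offset 50, limma 3.58.1, R 4.3.3), followed by quantile normalization and log2. The filter kept probes whose mean exceeded the 40th percentile of all probes (log2 intensity 7.05) and that had 1 gene symbol in the platform annotation, the brightest per gene, which left 13748 genes. Of 45281 probes 34885 had 1 symbol, 18 several and 10378 none listed. lmFit and eBayes were run per gene with group and chip as fixed terms, over 24 arrays and again without mor_32. P-values are two-sided, adjusted by Benjamini-Hochberg, with a threshold of 0.05.

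The genes named were the 10 smallest p in each direction with 1 sign on at least 5 of 6 chips, the 5 smallest p in each direction without mor_32 with 1 sign on at least 4 of the 5 chips left, up to 4 members of each list with the smallest p, and a set of landmark genes, of which 26 of 29 were tested. The 33 lists had 713 entries, of which 597 could be tested. The members of the comparison, the lists and the alternatives were chosen with earlier results of these data known. The mean log2 intensity of a list's tested members on an array is called its mean, and lists were described by counts and medians without a test.

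The fit was tested on simulated data, where 6.06% of 132 calls were unchanged genes. Alternatives covered the background step, scaling, the deposited log2 values, chip and position as terms, how probes were filtered and joined, the arrays fitted, weights, the prior, marker means as covariates, and each array or chip left out. Promoter sequences are RefSeq's, from a table of assembly GRCm38.p6. Python 3.11.15 with matplotlib 3.10.9 drew the figures.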

Additional observations from a re-analysis of the deposited data

Results flagged for a closer look

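Within groups of 6 arrays, 1 array stood apart from the other 5 in 24 of the 154 sets of values examined, 90 for genes and 64 for lists, where chance gives about 1 in 20, or 7.7, were they independent. They are not, since genes and lists overlap, and nothing is read from the excess. Of the 24, 12 were on mor_32, which had been singled out beforehand for its low Drd1 and Drd2, so these are a description. There Drd1 was at 10.07, Drd2 at 7.69, Ppp1r1b, the DARPP-32 gene, at 10.47, Tac1, the substance P precursor gene, at 9.42, Rgs9 at 10.34, Penk at 8.98 and Oprk1 at 6.53, all below the other 5 morphine drinkers. The medium spiny neuron mean was 10.05 and that of the opioid receptor partners 10.35 on this array, both low. High on it were Gfap at 13.70, the interferon response mean at 10.70 and the cytokine mean at 9.25.

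Among saccharin drinkers, sach_8 was low for Penk (10.66), Pdyn (12.96) and Gad1, a GABA-synthesising enzyme gene (13.85), and for the means of opioid genes (9.64), microglia genes (9.99), astrocyte genes (11.88) and respiratory chain subunits (12.63). Its chip partner mor_41 was low for Tsc22d3 (11.95). Meox1 was low on sach_10 (6.19), where the meningeal mean was high (9.40). Fos was low on sach_5 (10.41), and Npas4, an activity-dependent transcription factor gene, was low on mor_30 (8.17).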

How the results depend on the processing

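No gene passed in the saline comparison under any of 34 alternative settings with all arrays or 11 without mor_32, by limma. Genes at an unadjusted p under 0.05 numbered 404 to 875. In morphine-injected mice 1 gene passed without chip 3, and none under the other settings. The signs of the immediate-early (medians -0.42 to -0.11), interneuron (-0.30 to -0.12), cortical (0.01 to 0.45) and synaptic adhesion lists (0.02 to 0.15) were the same in all 34. The cortical value of 0.01 came from the fit with the cortical mean itself as a covariate. Lists with medians near 0 also kept their sign, such as opioid receptor partners (-0.089 to -0.0035) and respiratory chain subunits (-0.059 to -0.011). The settings reuse the same arrays, so a constant sign is no independent support. Scaling to a common median without mor_32 put the median of all genes at -0.10, so differences there are relative to that. The groups share no replicate numbers, and arrays were paired by chip, which held 1 of each group and was the block. Without sach_5 the medians of 2 lists turned sign, choroid plexus (0.044) and endothelial genes (-0.030). The number of arrays limits what can be seen.

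Signs turned for these genes, with the cause not tested beyond the arrays named. The mean of a gene's probes gave -0.010 for Abca9 and 0.19 for Ccdc85b. Array weights gave 0.086 for Penk and -8.76e-05 for Oprk1. Without mor_32 and mor_in_31 the values were 0.28 for Penk, 0.072 for Pdyn, 0.13 for Drd1, 0.21 for Drd2, 0.17 for Ppp1r1b, 0.030 for Tac1, 0.11 for Rgs9, -0.091 for Bdnf and -0.18 for Gfap. Without chip 2 they were 0.26 for Penk, 0.035 for Pdyn, 0.10 for Drd1, 0.21 for Drd2, 0.13 for Ppp1r1b, 0.012 for Tac1, 0.11 for Rgs9 and -0.13 for Gfap. With the medium spiny neuron mean as a covariate they were 0.11 for Penk, 0.017 for Drd2 and -0.045 for Bdnf. The cortical mean, chosen after seeing the data, gave 0.20 for Penk, 0.18 for Pdyn, 0.10 for Drd1, 0.13 for Drd2, 0.094 for Ppp1r1b, -0.48 for Bdnf and -0.012 for Gfap. Scaling to a common median gave -0.063 for Oprk1 and cyclic loess -0.038 for Oprk1. Without chip 1 the values were -0.068 for Oprk1 and 0.039 for Npas4, without chip 4 -0.021 for Oprk1, without chip 5 0.0099 for Oprl1, -0.087 for Bdnf and -0.00152 for Fkbp5, and without chip 6 -0.034 for Fkbp5 and -0.024 for Cx3cr1, a microglial receptor gene.

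In the fit without mor_32, scaling to a common median gave -0.038 for Penk, -0.061 for Bdnf, -0.065 for Fkbp5 and -0.11 for Cx3cr1. With no chip term the values were 0.021 for Pdyn, 0.082 for Drd1, 0.16 for Drd2, 0.19 for Ppp1r1b, 0.0997 for Rgs9 and -0.020 for Fkbp5. With only the saline-injected arrays they were 0.035 for Pdyn, 0.10 for Drd1, 0.21 for Drd2, 0.13 for Ppp1r1b, 0.012 for Tac1 and 0.11 for Rgs9. Array weights gave 0.036 for Pdyn, 0.052 for Drd2, 0.044 for Ppp1r1b, 0.041 for Rgs9, -0.021 for Bdnf and -0.017 for Cx3cr1, and chip as a random block gave 0.013 for Drd1, 0.076 for Drd2, 0.10 for Ppp1r1b and 0.011 for Rgs9.

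With 1 array left out at a time, values ran for Penk from -0.47 to 0.083, for Drd2 from -0.72 to 0.0031, for Oprk1 from -0.11 to 0.37, for Oprl1 from -0.15 to 0.0099, for Npas4 from -0.41 to 0.017, for Bdnf from -5.3e-04 to 0.46, for Fkbp5 from -0.034 to 0.052, for Gfap from -0.11 to 0.37 and for Cx3cr1 from -0.032 to 0.13.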

Other observations

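Several lists not yet described had medians near 0. Chromatin regulators studied in addiction had a median of 0.00 over 22 genes, with 11 above 0 and 11 below and none at an unadjusted p under 0.05. Glutamate receptors and transporters had -0.03 over 22, respiratory chain subunits -0.03 over 42, heat shock proteins and chaperones -0.03 over 21, and endothelial and pericyte genes 0.02 over 18 (-0.0073 without mor_32). The 23 other modulatory receptors had a median of -0.08, and Tacr3, the neurokinin B receptor gene, was the only member at an unadjusted p under 0.05, at 7.79, 8.09 and 8.68 in morphine drinkers and 7.88, 8.69 and 9.12 in saccharin drinkers (-0.46, SE 0.176, lower on 6 of 6 chips). The 4 glucocorticoid receptor and steroid handling genes had a median of -0.09, and Nr3c1, the glucocorticoid receptor gene, was lower on 6 of 6 chips by 0.23 (difference -0.23, unadjusted p = 0.207 by limma).

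Marker genes of tissues next to the striatum varied between arrays. Ttr, the transthyretin gene of choroid plexus, had a median of 11.94 in morphine drinkers, against 10.71 in saccharin drinkers, higher on 6 of 6 chips by 0.84 (SE 0.420, unadjusted p = 0.0617 by limma). The 7 choroid plexus genes had a median of -0.05, and the 12 meningeal genes, Stra6 among them, of 0.12. Cck, expressed in cortex and in interneurons, was at 9.30 on sach_5 and at 11.53 to 13.44 on the other saccharin arrays, against 12.13 to 13.55 in morphine drinkers. Gal, the galanin gene, had its 2 highest values on the same pair of arrays as the thalamic and septal mean, 9.53 on sach_5 and 9.16 on sach_2, against 6.97 to 8.36 in morphine drinkers.

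The median standard deviation of a gene over 6 arrays was 0.266 in morphine drinkers and 0.261 in saccharin drinkers, and 51.1% of genes were more variable in morphine drinkers. Over the 5 chips other than chip 2 it was 0.243 in morphine drinkers and 0.211 in saccharin drinkers, with 59.3% of genes more variable in morphine drinkers.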
